A study of Mus musculus with 24 samples.

Results

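The genes described here encode the transferases of phase II metabolism: UDP-glycosyltransferases (Ugt), glutathione S-transferases (Gst, with the microsomal Mgst genes) and sulfotransferases (Sult). They were taken by symbol, as every gene whose name begins with Ugt and a digit from 1 to 8, with Gst and one of the class letters a, k, m, o, p, t or z, with Mgst, or with Sult. This gave 68 of the 27179 genes in the table: 21 Ugt, 26 Gst and 21 Sult genes. The measurement was chromatin immunoprecipitation and sequencing of H3K27Ac, histone H3 acetylated on lysine 27, which marks active promoters and enhancers. The organs were brain, heart, kidney and liver of mice. Each was either flash frozen and crosslinked in 1% formaldehyde for 30 min (Frozen), or fixed in 10% formalin, embedded in paraffin and extracted at 95 °C for 20 min (FFPE). The table gives 8 libraries, 1 for each organ and preservation, so each organ is represented by 1 Frozen and 1 FFPE library. The labels used here give neither the strain, age or sex of the mice nor how many mice stand behind a library.

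Phase II enzymes attach a polar group to drugs, hormones, bilirubin and bile acids, so that the product can be carried out of the cell and excreted in bile or urine. The Ugt enzymes use UDP-glucuronic acid, the Gst enzymes use glutathione and the Sult enzymes use the activated sulfate PAPS. The liver is the main organ of conjugation and the kidney proximal tubule carries out part of it. Many of these genes stand in tandem arrays of similar copies. In the Ugt1a locus each gene has a first exon of its own, and all of them share the remaining exons at the 3′ end.

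Values are log2 CPM, reads counted for a gene relative to the library's effective size, on a log2 scale. They were not divided by gene length, so a higher value of one gene than of another does not show a higher density of the mark. Where 2 values are given for an organ, the Frozen value comes first and the FFPE value second. The libraries held 4404789 to 6164562 counted reads, and the 68 genes had 6 to 1326 reads each in a library, none of them at 0. All 68 genes entered the test with 26944 genes in all. Each organ was compared with the mean of the other 3 organs over both preservations with limma, and a gene was called at a Benjamini-Hochberg adjusted p under 0.05 over all genes tested. Differences are log2, with the standard error. The p-values rest on the spread among 8 libraries, which may be technical, and in bulk tissue more cells carrying the mark and more mark per cell cannot be told apart.

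Marker genes of organ-specific cells were mostly higher in their own organ. Of all genes tested, 11.2% were higher in liver, 8.73% in brain, 9.42% in heart and 3.19% in kidney. All 15 hepatocyte markers were higher in liver, 10 of 10 neuron markers in brain, 10 of 10 cardiomyocyte markers in heart, and 10 of 12 proximal tubule markers and 5 of 9 distal nephron markers in kidney. Of the markers of other cells, 7 of 9 oligodendrocyte and 5 of 7 astrocyte genes were higher in brain, 7 of 7 endothelial genes were higher in heart, and 2 of 7 macrophage genes (Clec4f and Cx3cr1) and 1 of 5 erythroid genes (Klf1) were higher in liver. Some markers were called higher elsewhere. These were 2 proximal tubule, 2 astrocyte and 1 oligodendrocyte gene in liver, and 2 proximal tubule and 1 cardiomyocyte gene in brain. In kidney 1 hepatocyte gene was higher, and in heart 1 macrophage gene.

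Liver stood above the other organs for most of the Ugt and Gst genes. Of the 68 genes, 37 were higher in liver, beside 11.2% of all genes tested, and 1 was lower, beside 9.73% of all genes. By family, 16 of 21 Ugt, 15 of 26 Gst and 6 of 21 Sult genes were higher. The median difference of the 68 genes was 1.00, against -0.06 over all genes tested. Both liver libraries lay above all of the other 6 for 32 of the 68 genes, beside 9.6% of all genes. Within each preservation taken alone, liver was the highest organ for 43 genes in Frozen and 41 in FFPE, and 34 genes, or 50% of them, had liver highest in both. Among all genes tested 14.3% had liver highest in both.

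**Figure D1:**
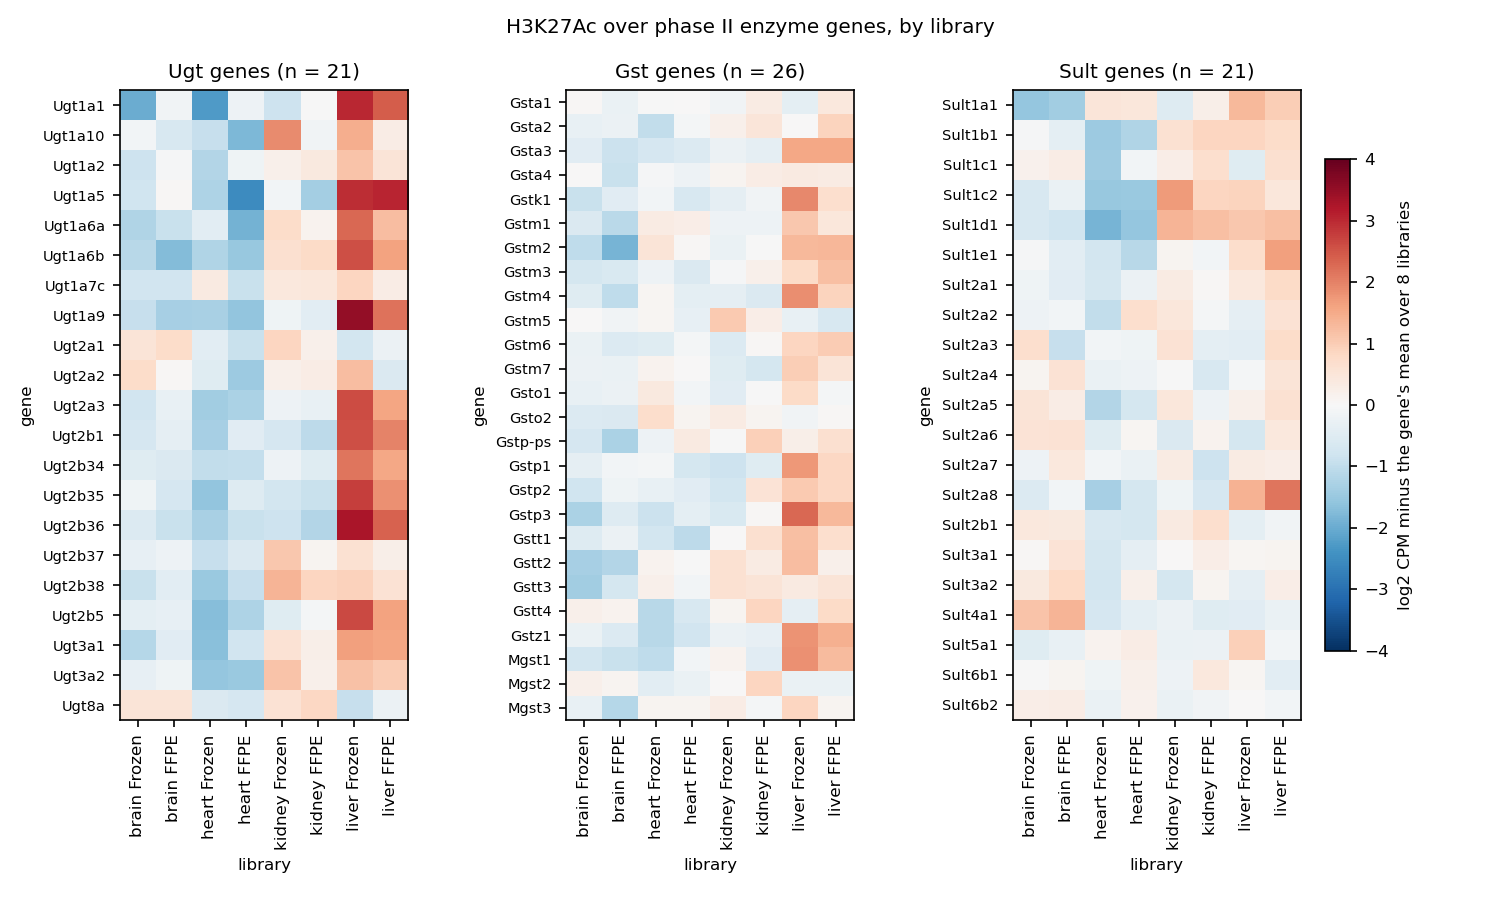
Each cell is the log2 CPM of 1 gene (rows) in 1 library (columns) minus that gene's mean over the 8 libraries, for 21 Ugt, 26 Gst and 21 Sult genes, with red above and blue below the mean. Both liver columns are red for 18 Ugt, 20 Gst and 10 Sult genes, and both heart columns are blue for 20 of the 21 Ugt genes.

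The Ugt1 and Ugt2 families held the largest liver differences. Of 8 Ugt1 genes 7 were higher in liver, and of 10 Ugt2 genes 7 were higher. Ugt1a1, the enzyme that conjugates bilirubin, had 7.87 and 7.27 in liver, 4.05 and 4.86 in kidney, 2.59 and 4.66 in heart and 2.88 and 4.73 in brain. Both liver libraries were above all others, with a difference of 3.61 ± 0.31 (adjusted p = 9.9e-11). Ugt1a9, a phenol and drug transferase, had 7.19 and 5.86 in liver and between 2.10 and 3.51 in the other libraries (3.80 ± 0.31, adjusted p = 4.0e-11). Ugt1a5 stood at 6.05 and 6.15 in liver, 3.01 and 1.73 in kidney, 1.86 and 0.59 in heart and 2.30 and 3.14 in brain. Its difference of 3.99 ± 0.39 was the largest of the 68 genes, a 15.9-fold higher level on this scale (adjusted p = 1.1e-09). Ugt1a6a and Ugt1a6b, which conjugate small planar phenols, were higher by 2.36 ± 0.31 and 2.80 ± 0.28. Ugt1a7c, at 4.75 and 4.19 in liver and 4.29 and 4.34 in kidney, was the only Ugt1 gene that did not pass (0.79 for liver).

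The Ugt1a genes lie at chr1:88055411-88220002 (GRCm38), and 7 of the 8 are annotated to end at the same base. Ugt1a10 begins first and spans the other 7, and Ugt1a1 begins last. Ugt1a10 had 168 reads in liver Frozen where Ugt1a1 had 1326, so most reads counted for Ugt1a1 were not counted for Ugt1a10 too. The assignment of reads to overlapping genes was not stated (not given in the sources used here), and the values of the 8 genes are therefore uncertain as values of single genes.

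Along the second large array, at chr5:86889770-87591611, 13 genes follow each other: 10 Ugt2 genes, which conjugate steroids, bile acids and drugs, and then Sult1b1, Sult1d1 and Sult1e1. Ugt2b36 had 7.67 and 6.76 in liver, 3.56 and 3.23 in kidney, 3.11 and 3.49 in heart and 3.85 and 3.50 in brain (3.76 ± 0.27, adjusted p = 2.4e-12). Ugt2b35 had 7.32 and 6.36 in liver against 2.96 to 4.36 elsewhere (3.06 ± 0.29), and Ugt2b1 had 7.17 and 6.59 against 3.25 to 4.23 (3.04 ± 0.27). Ugt2b34, the first gene of the array, stood at 6.78 and 6.20 in liver against 3.68 to 4.46 (2.45 ± 0.24). The liver difference did not run evenly along the array. Ugt2b37, between Ugt2b5 and Ugt2a3, had 4.46 and 4.06 in liver and 4.93 and 3.95 in kidney, and was not called in liver (0.57), while Ugt2b5 and Ugt2a3 on either side were higher by 2.82 ± 0.30 and 2.81 ± 0.27. Ugt2b38 had 5.03 and 4.66 in liver and 5.44 and 4.95 in kidney, where the libraries of both organs overlapped. It was called higher in liver (1.00 ± 0.29, adjusted p = 0.00946) and in kidney. In liver against kidney it was not called (-0.35, adjusted p = 0.626). Its liver call was lost without liver Frozen, without kidney FFPE, or with a prior variance that does not follow the mean. Ugt2a1 and Ugt2a2, which overlap each other, had at most 3.27 in any library and neither was called in liver.

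**Figure D2:**
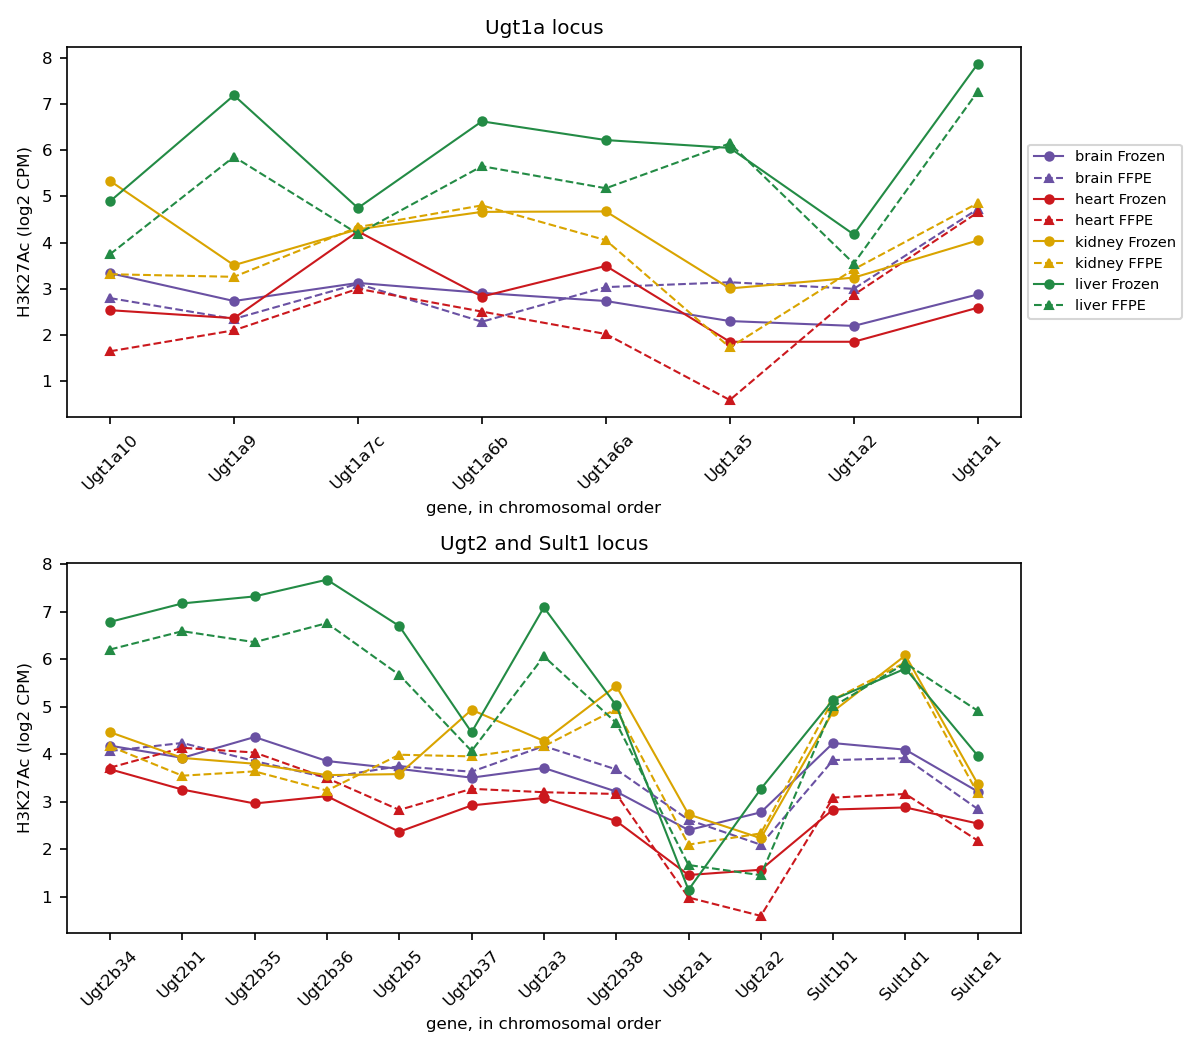
H3K27Ac (log2 CPM, y axis) over the genes of the Ugt1a locus (8 genes, top) and of the Ugt2 and Sult1 locus (13 genes, bottom) in chromosomal order, with 1 line per library, colours for organs, circles and full lines for Frozen, triangles and broken lines for FFPE. The liver lines leave the others at Ugt2b34, Ugt2b1, Ugt2b35, Ugt2b36, Ugt2b5 and Ugt2a3 and lie near the kidney lines at Ugt2b37, Sult1b1 and Sult1d1. Lines join neighbouring genes for the eye only.

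The 2 Ugt3 genes use other sugar donors than UDP-glucuronic acid. Ugt3a1 had 6.19 and 6.13 in liver, 5.12 and 4.77 in kidney, 3.41 and 4.08 in brain and 2.88 and 3.76 in heart, an order of organs that was the same in both preservations (liver 2.15 ± 0.26, adjusted p = 1.0e-07). Ugt3a2 had 5.21 and 5.06 in liver and 5.17 and 4.25 in kidney, where the libraries of both organs overlapped (liver 1.46 ± 0.29). Ugt8a, which adds galactose to ceramide and so makes the main glycolipid of myelin, went the other way. It had 3.66 and 4.35 in liver, 4.01 and 3.93 in heart, 5.12 and 5.11 in brain and 5.16 and 5.41 in kidney, and was the 1 gene of the 68 that was lower in liver (-0.78 ± 0.25, adjusted p = 0.0208). That call was lost without either kidney library, without liver Frozen, or with a prior variance that does not follow the mean.

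Gst genes are grouped in classes by sequence. In the mu class (Gstm), an array of 7 genes at chr3:107895854-108045179, 6 of 7 were higher in liver. Gstm1 had 6.86 and 6.23 in liver, 6.11 and 6.04 in heart, 5.58 and 5.58 in kidney and 5.22 and 4.69 in brain (1.01 ± 0.21, adjusted p = 5.0e-04), and lost its call without liver Frozen. Gstm2 had 5.87 and 5.91 in liver, 5.08 and 4.62 in heart, 4.33 and 4.55 in kidney and 3.57 and 2.71 in brain (1.75 ± 0.26). In both genes the heart libraries came second. Gstm4, at the end of the array, was higher by 1.83 ± 0.22. Gstm5, at its start, was the exception, with 3.44 and 3.07 in liver and 4.77 and 3.99 in kidney, and was not called in liver (-0.62, adjusted p = 0.146).

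The remaining classes had 1 to 4 genes each. Gstp1, the pi class enzyme that conjugates reactive electrophiles, had 6.67 and 5.78 in liver and 4.11 to 4.88 elsewhere (1.70 ± 0.25). Gstp3, in the same array, had 6.07 and 5.08 against 2.49 to 3.80 (2.41 ± 0.32). Gstz1, the enzyme of the penultimate step of tyrosine breakdown, had 6.09 and 5.70 in liver against 3.19 to 4.06 (2.15 ± 0.26). Gsta3, an alpha class enzyme that detoxifies aflatoxin in mice, had 5.52 and 5.51 in liver against 3.11 to 3.74 (2.07 ± 0.28). In each of these 4 genes both liver libraries stood clear of all others. Gsta3 was the 1 alpha class gene of 4 that was called in liver, and the median liver difference of the class was 0.54. Gstk1, found in mitochondria and peroxisomes, had 5.96 and 4.71 in liver against 3.16 to 3.93 (1.72 ± 0.30), and lost its call without liver Frozen. Mgst1, a membrane-bound transferase of the endoplasmic reticulum, was higher by 2.05 ± 0.33, while Mgst3 had 4.81 and 4.05 in liver and 4.05 and 4.03 in heart and was not called (0.65, adjusted p = 0.109). Neither omega class gene was called in liver. Gsto2, which reduces dehydroascorbate, was the only one of the 68 genes with heart highest in both preservations, at 5.65 and 5.06. In FFPE heart and kidney were nearly equal, at 0.255 and 0.254 above the mean of the other 3 organs. Gsto2 was not called in heart.

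No single organ was highest for most of the Sult genes. Brain was highest in both preservations for 5 of the 21 (23.8%, beside 17.3% of all genes), liver for 4 (19.0%, beside 14.3%) and kidney for 3 (14.3%, beside 7.21%). The brain and liver shares lay near those of all genes, and the difference between these shares was not tested. Of the 21 genes 1, Sult4a1, was called higher in brain. Among the 5 with brain highest, Sult2a6 and Sult3a2 had as few as 12 and 14 reads in a library. In the Sult1 family, which sulfates phenols, catecholamines, thyroid hormones and estrogens, 5 of 6 genes were higher in liver and 3 of 6 in kidney. Sult1a1, the general phenol sulfotransferase, had 6.83 and 6.50 in liver, 6.0 and 5.97 in heart, 5.01 and 5.76 in kidney and 3.97 and 4.12 in brain (liver 1.53 ± 0.22, adjusted p = 2.6e-06). The estrogen sulfotransferase Sult1e1 had 3.97 and 4.91 in liver against 2.18 to 3.37 elsewhere (1.55 ± 0.35) and lost its call without liver FFPE. Of the 8 Sult2a genes in the array at chr7:13623967-14493023, which sulfate bile acids and steroids, Sult2a8 alone was called in liver. It had 5.22 and 5.96 in liver, 3.64 and 3.14 in kidney, 3.29 and 3.72 in brain and 2.48 and 3.12 in heart (2.35 ± 0.30, adjusted p = 2.8e-07). The other Sult2a genes had between 0.90 and 3.25 in every library. Sult2b1, the cholesterol sulfotransferase of skin, was not called in liver. Sult3a1 (2.17 to 3.39 over the 8 libraries), Sult5a1 (3.57 to 5.00) and Sult6b1 (3.07 to 3.92) were not called in any organ.

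**Figure D3:**
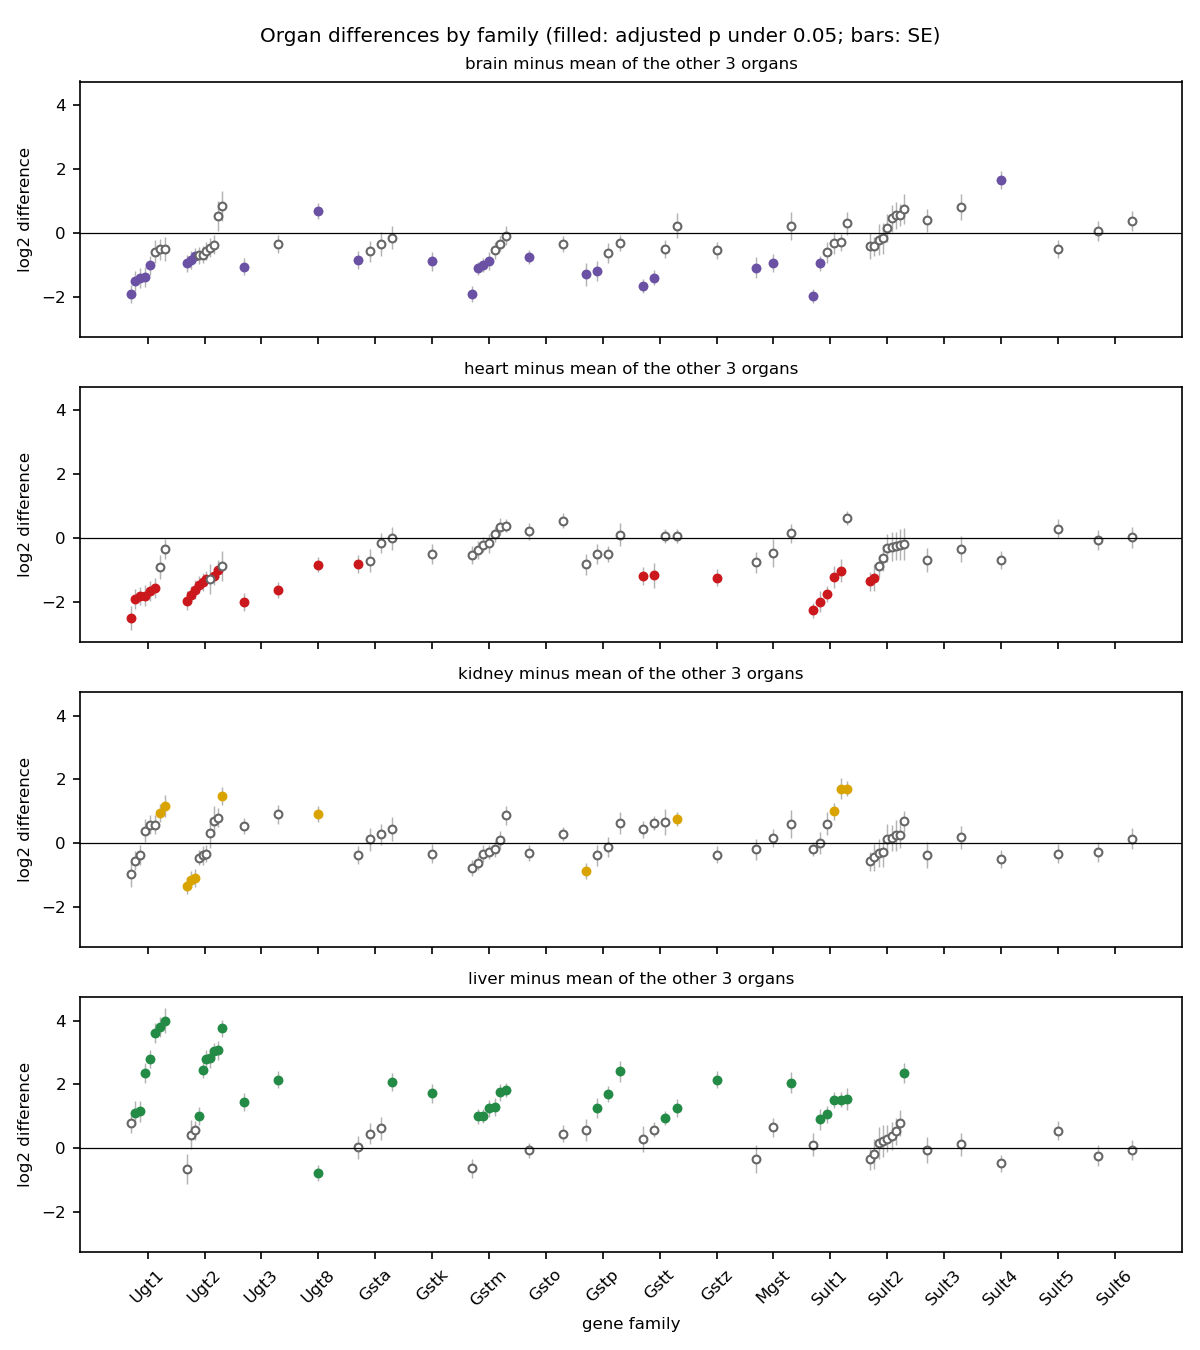
Log2 difference of each organ from the mean of the other 3 organs (y axis, bars are the standard error) for the 68 genes by family (x axis), with genes ordered by difference within a family. Filled points passed an adjusted p of 0.05 in limma and open points did not. Filled points lie above 0 in liver for all families but Ugt8, Gsto, Sult3, Sult4, Sult5 and Sult6, and below 0 in heart for most Ugt1, Ugt2 and Sult1 genes.

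Promoter letters were read because the stress factor NRF2 is known to bind the antioxidant response element in promoters of several Gst genes. RefSeq windows (GRCm38, 250 bases before to 50 bases after a gene's start) were at hand for 59 of the 68 genes, 71 windows in all. The core of the element, TGACNNNGC, searched on both strands, was in 4 of these 71 windows, or 5.63%, and in 12.4% of all 32851 windows of the same length. All 4 were Gst windows, 12.5% of 32, those of Gsta3, Gstm5, Gstm7 and Mgst1, and none of 19 Ugt or 20 Sult windows held the letters. The window of Gstm7 lies wholly inside the gene's annotated span and is not shown, and the start used for Gsta3 lies just inside its span. The lines below give the 150 bases before the start, 5′ to 3′ on the gene's strand, with the match in capitals. Gsta3 (chr1:21240435-21240584, plus strand) and Mgst1 (chr6:138140377-138140526, plus strand) were higher in liver. Gstm5 (chr3:107895704-107895853, plus strand) holds the same core and was not called in liver.
Gsta3: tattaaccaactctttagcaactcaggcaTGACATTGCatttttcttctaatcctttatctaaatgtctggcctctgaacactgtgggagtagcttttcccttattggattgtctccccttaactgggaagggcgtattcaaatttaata
Mgst1: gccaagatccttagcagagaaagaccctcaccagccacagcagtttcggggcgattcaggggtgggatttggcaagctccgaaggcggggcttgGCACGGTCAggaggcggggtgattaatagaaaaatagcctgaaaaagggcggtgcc
Gstm5: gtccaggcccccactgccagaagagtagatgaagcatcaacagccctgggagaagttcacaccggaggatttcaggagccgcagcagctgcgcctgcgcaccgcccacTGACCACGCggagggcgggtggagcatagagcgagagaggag

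The match begins 121 bases before the start in Gsta3, 56 in Mgst1, where it lies on the other strand, and 42 in Gstm5. Mgst1 had 5.44 and 4.87 in liver and 2.59 to 3.76 in the other libraries. Gstm7 had 5.66 and 5.17 in liver and 3.97 to 4.81 elsewhere, and was higher in liver by 0.999 ± 0.24. In both genes the 2 liver libraries were above all others, whereas for Gstm5 the 2 kidney libraries were. The HNF4 letters CAAAGTCCA were in 1 window, that of Sult1b1 (1.41%, against 0.475% of all), and the AHR core GCGTG in 19.7% against 32.4% of all. A match is a string of letters and not a measured binding site.

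Heart was the organ with the lowest values for the Ugt genes. Of the 68 genes, 28 were lower in heart, beside 7.31% of all genes tested, and 0 were higher by limma, beside 9.42% of all genes. At an unadjusted p under 0.05, 34 were lower and 2 higher, 52.9% in either direction, beside 29.6% of all genes. The lower genes were 17 of 21 Ugt, 4 of 26 Gst and 7 of 21 Sult genes, and the median difference of the 68 was -0.73, against -0.04 over all genes. Heart was the lowest organ in both preservations for 26 genes (38.2%), beside 11% of all genes, and both heart libraries lay below all others for 19 genes, beside 6.4% of all genes. Sult1d1, which sulfates dopamine and other catecholamines, had 2.88 and 3.16 in heart, 4.09 and 3.91 in brain, 6.08 and 5.93 in kidney and 5.80 and 5.91 in liver (heart -2.27 ± 0.24, adjusted p = 2.5e-08). Ugt3a2 had 2.48 and 2.57 in heart against 3.71 to 5.21 elsewhere (-2.02 ± 0.29), and Sult1c2 had 2.02 and 2.02 against 2.88 to 5.23 (-2.0 ± 0.32). In all 3 genes both heart libraries were below every other library. The mean of the other organs includes liver, where many of these genes were high. With all libraries 28 of the 68 genes were called in heart in either direction, beside 16.7% of all genes, and without heart Frozen 13 were, beside 3.24% of all genes.

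Brain was low for Gst genes. Of the 68 genes, 24 were lower in brain, beside 13.6% of all genes tested, and 2 were higher, beside 8.73%. The lower genes were 9 of 21 Ugt, 13 of 26 Gst and 2 of 21 Sult genes. The median difference of the 68 was -0.51, against 0.04 over all genes. As for heart, the mean of the other organs includes liver, where many of these genes were high. Brain was the lowest organ in both preservations for 12 genes (17.6%), beside 15.4% of all genes. These were 10 Gst, 2 Sult and 0 Ugt genes. Sult1a1 (-1.97 ± 0.22) and Gstm2 (-1.92 ± 0.26) fell furthest. Gstt2, a theta class gene, had 4.56 and 4.71 in brain, 6.51 and 6.23 in kidney, 6.02 and 5.87 in heart and 7.11 and 6.11 in liver (-1.68 ± 0.22). Both brain libraries of these 3 genes were below all others, as they were for 10 of the 68 genes, beside 11.7% of all genes. Gstt2 was also higher in liver (0.96 ± 0.22), a call lost without liver Frozen or with a prior variance that does not follow the mean. With all libraries 26 of the 68 genes were called in brain in either direction, beside 22.4% of all genes. Without brain Frozen 11 were called, beside 9.30% of all genes, and without brain FFPE 17, beside 17.3%.

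The 2 genes that rose in brain both have a known place there. Sult4a1, a sulfotransferase of neurons with no settled substrate, had 5.18 and 5.40 in brain and 3.38 to 3.80 in all other libraries (1.67 ± 0.28, a 3.17-fold higher level, adjusted p = 2.6e-05). Ugt8a, described above, was higher in brain by 0.70 ± 0.25 (adjusted p = 0.0396), although its brain values lay below those of kidney. That call was lost in 6 of the 8 fits that left out 1 library and with a prior variance that does not follow the mean. Oligodendrocytes are the myelin-making cells that use Ugt8a. The median of the 9 oligodendrocyte markers was 4.91 and 5.03 in brain and 4.11 and 3.80 in kidney. By limma 0 of the 9 were called higher in kidney, beside 3.19% of all genes tested. Which cells carry the mark at Ugt8a in either organ was not tested.

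Kidney had few calls in either direction. Of the 68 genes, 8 were higher in kidney, beside 3.19% of all genes tested, and 4 were lower, beside 2.03%. The higher genes were Ugt1a6b, Ugt1a10, Ugt2b38, Ugt8a, Gstt3, Sult1b1, Sult1c2 and Sult1d1, and the lower ones Ugt2b1, Ugt2b35, Ugt2b36 and Gstp1. The mean of the other organs includes liver, where all 4 lower genes were called higher. Kidney was above heart in Frozen for Ugt2b1, Ugt2b35 and Ugt2b36, and in FFPE for Gstp1. Sult1d1 rose most (1.71 ± 0.24, adjusted p = 6.0e-06) and was the 1 gene that kept its call in all of the 13 alternative fits. Ugt8a was higher by 0.92 ± 0.25, and in both genes the 2 kidney libraries lay above all others, as in 3 of the 68 genes, beside 4.76% of all genes. Sult1c2 had 5.23 and 4.38 in kidney and 4.41 and 3.99 in liver (1.71 ± 0.32). It lost its call without kidney Frozen or with a prior variance that does not follow the mean. With all libraries 12 of the 68 genes were called in either direction, beside 5.22% of all genes. Without kidney Frozen 1 was called, beside 0.984% of all genes, and without kidney FFPE 3, beside 1.5%.

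Set directly against kidney, 25 of the 68 genes were higher in liver, beside 7.05% of all genes, and 2 were lower, beside 4.71%. The higher genes were 12 of 21 Ugt, 11 of 26 Gst and 2 of 21 Sult genes. Ugt2b36 (3.82 ± 0.33), Ugt1a5 (3.73 ± 0.48) and Ugt2b1 (3.15 ± 0.33) were furthest above kidney. Ugt8a (-1.28 ± 0.30) and Gstm5 (-1.12 ± 0.36, adjusted p = 0.0382) were below it. Both calls were lost without liver Frozen, without either kidney library, or with a prior variance that does not follow the mean. The call of Gstm5 was also lost without liver FFPE. Of the 6 Sult1 genes, Sult1a1 alone was called (1.28 ± 0.27). It lost its call without kidney Frozen, without liver Frozen, or with a prior variance that does not follow the mean. Sult1d1, at 6.08 and 5.93 in kidney and 5.80 and 5.91 in liver, was high in both organs. With all libraries 27 of the 68 genes were called in either direction, beside 11.8% of all genes, and without liver Frozen 16 were, beside 4.93%.

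Other genes of the same pathways were counted from lists, to be read beside 11.2% of all genes higher and 9.73% lower in liver, and 3.19% higher and 2.03% lower in kidney. Of 14 regulators of liver and drug metabolism genes, 13 were higher in liver, with the largest differences in Nr1i3, which encodes the drug-sensing receptor CAR (3.51 ± 0.29), and the pioneer factor Foxa1 (3.32 ± 0.28). In kidney 3 of the 14 were higher and 2 lower, with Nr1i3 among the lower ones (-1.37 ± 0.29). For kidney, the mean of the other organs includes liver. Of 12 other conjugating enzymes, 10 were higher in liver, led by the glycine transferase Glyat (2.58 ± 0.33) and the betaine methyltransferase Bhmt (2.57 ± 0.28). In kidney 2 were higher and 1 lower. Nat8, which acetylates cysteine conjugates in the last step of mercapturate synthesis, was higher by 2.61 ± 0.35 there, and Nnmt was lower (-1.22 ± 0.30).

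Genes that supply the donor molecules were counted in the same way, beside the same shares of all genes, 11.2% higher and 9.73% lower in liver. Of 16 glutathione genes, 6 were higher in liver and 2 lower. Ggt6 (2.74 ± 0.26) and Cbs, the first enzyme of the path from homocysteine to cysteine (1.92 ± 0.24), rose most. Ggt1, the transpeptidase that breaks down extracellular glutathione, was lower in liver (-0.96 ± 0.27) and higher in kidney (1.14 ± 0.27), and the glutathione synthetase Gss was higher in kidney (1.06 ± 0.24). Of 9 genes of sulfate and PAPS supply, 4 were higher in liver, led by the sulfate transporter Slc26a1 (2.16 ± 0.22) and the PAPS synthase Papss2 (1.91 ± 0.22). Of 5 genes listed under UDP-glucuronate supply 3 were higher, among them Ugdh, which makes UDP-glucuronic acid (1.10 ± 0.21). Another of the 3 was Gusb, the glucuronidase that removes glucuronic acid from conjugates (1.04 ± 0.21). Of 7 efflux transporters 3 were higher and 2 lower. Those higher include Abcc2, the canalicular pump for conjugates (2.27 ± 0.22), and Abcc3 (1.61 ± 0.22). Of 11 genes of the NRF2 pathway 4 were higher and 1 lower, with Mafg (2.08 ± 0.24) and Prdx1 (1.28 ± 0.23) first. The median liver differences of the lists were 1.92 for the regulators, 1.46 for the other conjugating enzymes, 0.55 for glutathione, 0.19 for PAPS, 0.80 for UDP-glucuronate, -0.04 for efflux and 0.36 for NRF2, against -0.06 over all genes.

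FFPE and Frozen libraries were then compared over the 4 organs. Of the 68 genes, 1 was higher in FFPE, beside 2% of all genes tested, and 1 was lower, beside 1.91%. At an unadjusted p under 0.05 the count was 7, or 10.3%, beside 16% of all genes. Both called genes belong to the Ugt1a locus and their FFPE and Frozen libraries overlapped. Ugt1a1 was higher by 1.03 ± 0.27 (adjusted p = 0.021) and Ugt1a10 was lower by -1.15 ± 0.29 (adjusted p = 0.0155). In either direction 2 of the 68 genes were called, beside 3.91% of all genes, and leaving out 1 library gave between 0 and 3. Ugt1a1 lost its call without either heart library or either kidney library. Ugt1a10 lost it without either kidney or either liver library. Both genes also lost it with a prior variance that does not follow the mean.

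In Ugt1a1 the organs went in opposite directions. The FFPE to Frozen ratio was 3.63 in brain (95% interval 2.54 to 5.28), 4.24 in heart (2.76 to 6.72) and 1.75 in kidney (1.35 to 2.29), but 0.66 in liver (0.601 to 0.723). These intervals are exact Clopper-Pearson intervals and cover counting error only. In Ugt1a10 all 4 ratios were below 1, at 0.45 in liver, 0.245 in kidney, 0.53 in heart and 0.683 in brain, and the intervals of brain and heart included 1. The Ugt1a genes summed had a ratio of 0.595 in liver, 0.813 in kidney, 0.96 in heart and 1.36 in brain. Of the summed Ugt1a reads Ugt1a1 took 13% in brain Frozen and 34.6% in brain FFPE, 9.75% and 43% in heart, 10.6% and 22.8% in kidney, and 33.7% and 37.4% in liver. The share of Ugt1a1 was thus higher in the FFPE library of every organ. The part of the assay or of the counting behind this shift was not tested.

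**Figure D4:**
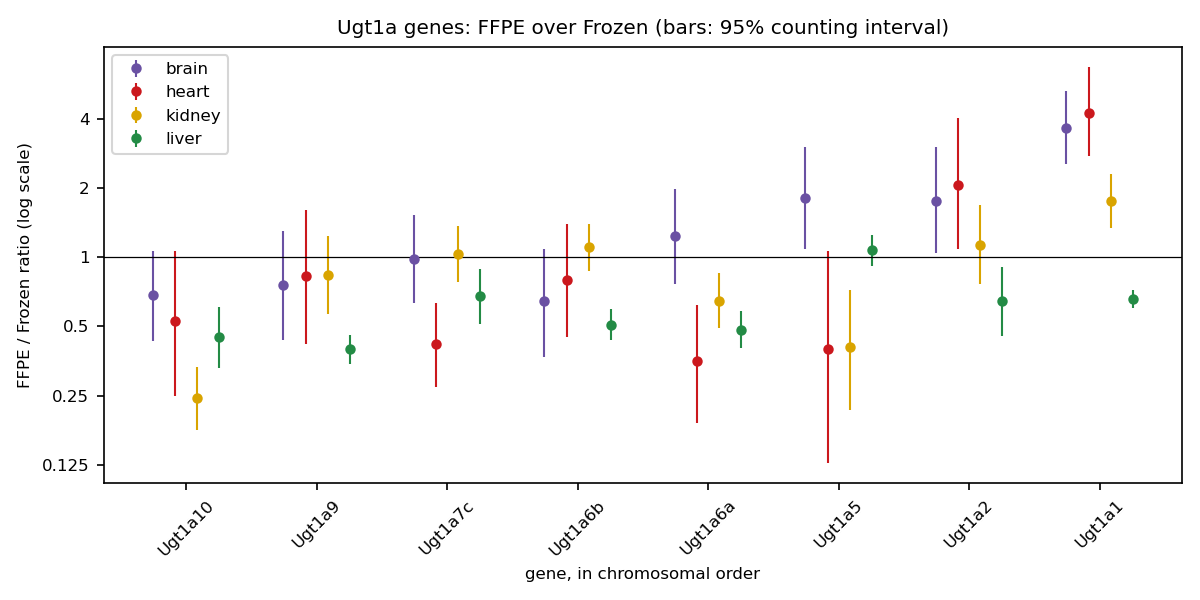
FFPE to Frozen ratio of H3K27Ac (y axis, log scale) for the 8 Ugt1a genes in chromosomal order (x axis), with 1 point per organ and bars for the exact 95% counting interval. At Ugt1a1, the last gene, brain, heart and kidney lie above 1 (3.63, 4.24 and 1.75) and liver below 1 (0.66).

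In liver the ratio was below 1, beyond counting error, for 29 of the 68 genes (42.6%, beside 27.8% of all genes) and above 1 for 10 (14.7%, beside 23.9%). In kidney 13 genes were below 1 and 11 above, beside 17.6% and 19.7% of all genes. In heart 8 were below and 9 above, beside 26.7% and 18.5%, and in brain 7 and 7, beside 13.5% and 17.0%. The liver genes below 1 include Ugt1a9 at 0.397, Ugt2b5 at 0.49, Ugt2a3 at 0.489 and Gstk1 at 0.42, and those above 1 include Sult1e1 at 1.93 and Sult2a8 at 1.68. Summed over the 21 Ugt genes the liver level was 1740 CPM in Frozen and 1061 CPM in FFPE, and over the 21 Sult genes 401.8 and 419.4 CPM. Set against the other organs of the same preservation, the median liver difference of the 68 genes was 1.16 in Frozen and 0.83 in FFPE, and for the Ugt genes 2.58 and 2.14. The direction of the liver difference was the same in both preservations for 55 of the 68 genes. Values of the whole table moved with this. Hepatocyte markers had a liver median of 7.63 in Frozen and 6.90 in FFPE, and the standard deviation of all genes' log2 CPM was 2.30 and 1.95 in these libraries. Their part in the difference was not tested.

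**Figure D5:**
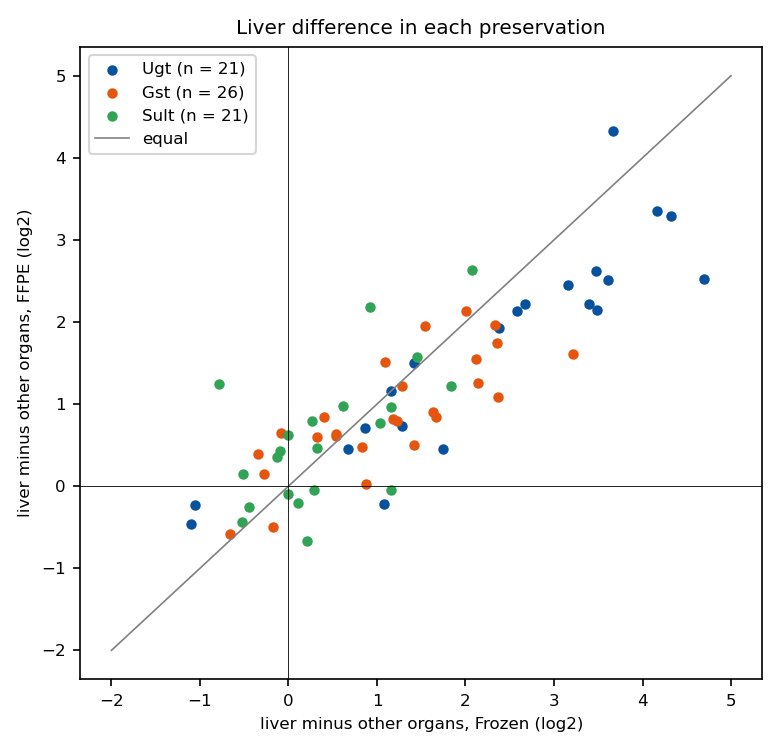
Each point is 1 of the 68 genes, with the liver value minus the mean of the other 3 organs in Frozen (x axis, log2) and in FFPE (y axis, log2), coloured by family. Most Ugt points with a high Frozen difference lie below the line of equality, while Ugt1a5 lies above it (3.66 in Frozen and 4.33 in FFPE).

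Positions and overlaps limit some values. By RefSeq spans 27 of the 68 genes overlap another gene, and without knowledge of strand or counted part the reads of both cannot be told apart. Besides the Ugt1a genes these include Sult1a1 (with Slx1b), Gstz1 (with Pomt2) and, with predicted genes, Sult4a1, Ugt8a, Gsta3 and Gstm4. Gstp-ps is a pseudogene and was lower in brain (-1.30 ± 0.35). Copies within the Ugt2b, Gstm, Gstp and Sult2a arrays are similar in sequence, and how reads with several positions were treated was not stated (not given in the sources used here).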

How the data were processed

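H3K27Ac immunoprecipitates of mouse brain, heart, kidney and liver, Frozen or FFPE, were analysed from the 1 deposited table. The labels describe 16 H3K27Ac samples, 2 per group, and 8 inputs. The table has 8 value columns, 1 per group, with no replicate number, and no value column was left unused. The labels do not say if both replicates were merged in a column, nor give its run or library kit. Per the submitters' processing notes, the authors used Bowtie2, featureCounts and limma with the mouse build mm10. Their versions and the counted part of each gene were not stated (not given in the sources used here).

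Values were deposited by the authors as log2 CPM. A whole number of reads, to a tolerance of 0.001, was recovered for 100% of them in each column when 0.5 was taken as the offset added to each count, with size factors of 0.749 to 1.22 set by the authors. Tests used the deposited log2 values in limma 3.58.1 (R 4.3.3), with lmFit, eBayes with a prior variance trend, and a model of organ plus preservation. This leaves 3 residual degrees of freedom. Tests were two-sided, and p-values were adjusted over the 26944 genes left after 235 genes at 0 in every library were removed. The procedure was tested on simulated data. Recovered counts gave ratios with exact Clopper-Pearson 95% intervals, which cover counting error only.

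Genes and lists were chosen with earlier results of these data known. Members named singly were, per organ, the 5 largest rises and 3 largest falls among called genes whose libraries did not overlap, the 3 largest each way for liver against kidney and for FFPE against Frozen, and the highest of each family. Per pathway list the 2 largest called differences in liver and in kidney were named. Ugt1a6a, Ugt1a6b, Ugt1a7c, Ugt2a3, Ugt2b5, Ugt2b37, Ugt2b38, Gstm4, Gstm7, Gstp3, Mgst1, Sult1e1 and other members given with values beyond this rule were chosen after their values were seen, as was Ggt1 in liver. A part of the listed genes and of the promoter search is not reported here. Positions are from RefSeq on GRCm38, matched by gene identifier for 68 of 68 members. Impad1 and Hbb-bt of the lists were not found by symbol. Alternatives were no prior variance trend, quantile scaling, scaling to the same median and median absolute deviation, at least 40 counts per gene, an offset of 2 counts, and leaving out each library.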

Additional observations from a re-analysis of the deposited data

Results flagged for a closer look

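With 1 library per group, the effect of preservation in 1 organ could not be tested against that in another. In 8 of the 68 genes the FFPE to Frozen ratio was at least 1.5-fold above 1 in one organ and at least 1.5-fold below 1 in another, with both exact 95% counting intervals clear of 1. This is 11.8% of them, beside 7.21% of all genes tested. The difference between organs was not tested, and the minimum of 1.5-fold was chosen after the data were seen. Without it 13 genes met the condition, or 19.1%, beside 21.4% of all genes tested. With 4 organs and 68 genes, counting error alone can place some intervals clear of 1.

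The ratios are given with their interval in parentheses. Ugt1a5 had a ratio of 1.8 in brain (1.09 to 3.02), and of 0.405 in kidney (0.217 to 0.722). Ugt1a2 had a ratio of 1.76 in brain (1.04 to 3.01) and 2.05 in heart (1.09 to 4.02), and of 0.644 in liver (0.453 to 0.906). Ugt1a1, the bilirubin transferase, had a ratio of 3.63 in brain (2.54 to 5.28), 4.24 in heart (2.76 to 6.72) and 1.75 in kidney (1.35 to 2.29), and of 0.66 in liver (0.601 to 0.723). These 3 genes are neighbours in the Ugt1a locus, and their values are uncertain as values of single genes. Gstp3, of the pi class, had a ratio of 1.69 in brain (1.05 to 2.75) and 1.57 in kidney (1.08 to 2.29), and of 0.501 in liver (0.412 to 0.605). Ugt2b1 had a ratio of 1.85 in heart (1.25 to 2.75), and of 0.666 in liver (0.592 to 0.749). Ugt2b35 had a ratio of 2.12 in heart (1.39 to 3.28), and of 0.512 in liver (0.453 to 0.579). In all 3 the ratio was below 1 in liver. Mgst1, a microsomal transferase, had a ratio of 1.88 in heart (1.15 to 3.14), and of 0.663 in kidney (0.451 to 0.967). Sult2a3 had a ratio of 2.26 in liver (1.21 to 4.35), and of 0.325 in brain (0.144 to 0.666) and 0.505 in kidney (0.26 to 0.94).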

How the results depend on the processing

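No paired analysis was possible because the columns carry no replicate number. None of the 13 alternative fits reversed the sign of a call among the 68 genes. Calls that held in all 13 were 25 of 38 in liver, 11 of 28 in heart, 9 of 26 in brain, 1 of 12 in kidney, 14 of 27 for liver against kidney and 0 of 2 for FFPE against Frozen. For the genes named by rule, 2095 of the recomputed values stayed on the same side of the threshold, 138 lost their call and 29 gained one. The 2095 include uncalled values, whose direction was free to change.

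With a prior variance that does not follow the mean, the called members were 10 in brain, 15 in heart, 1 in kidney, 15 for liver against kidney and 0 for preservation, and the called genes over the whole set tested were 2421 in brain, 1373 in heart, 130 in kidney, 2677 in liver, 947 for liver against kidney and 369 for preservation, against 6030, 4508, 1407, 5640, 3168 and 1054 with the trend. Kidney had 2264 called genes after quantile scaling and 2375 after scaling to the same median and median absolute deviation. The latter gave 3574 higher and 3706 lower genes in brain, against 2353 and 3677, and quantile scaling gave 1737 higher and 1776 lower genes for liver against kidney, against 1900 and 1268. A count without the Ugt1a genes and the pseudogene is 0 for preservation by definition, since both called members are Ugt1a genes. The cause of the changes between settings was not tested.

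Leaving out 1 library gave 11 to 29 called members in brain, 13 to 30 in heart, 1 to 14 in kidney, 26 to 40 in liver, 16 to 28 for liver against kidney and 0 to 3 for preservation. Over all genes it gave 2505 to 7242, 872 to 5251, 265 to 1843, 2200 to 6005, 1223 to 3624 and 501 to 1969 called genes, in the same order. Where an organ is left with 1 library, that library is assumed to vary like the others. Of the 68 genes, 22 had under 20 reads in at least 1 library, and the lowest count was 6, in Ugt1a5 and in Ugt2a2.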
